A study of Homo sapiens with 7 samples.

Results

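Binding of the vitamin D receptor (VDR) was examined at the loci of serglycin (SRGN) and carbohydrate sulfotransferase 3 (CHST3), which lie on the long arm of chromosome 10. The peaks taken were all those that overlapped a gene body or its flanks of 50 kb on each side in hg19. For SRGN the gene body was chr10:70847828-70864567, and for CHST3 it was chr10:73724120-73773322. The 6 lists held 29 such peaks among the 35564 peaks of the chromosomes that all of them cover. Merged wherever peaks shared at least 1 bp, these made 11 sites out of 28993, of which 8 were at SRGN and 3 at CHST3. The genes were chosen by the fold enrichment of sites near them, which ranked among the highest in the lists of both treatments. The folds, ranks and list membership given here are therefore descriptions, without a test.

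The cells were of THP-1, a line established from the blood of a patient with acute monocytic leukaemia. They had been kept for 8 h with 100 nM 1α,25-dihydroxyvitamin D3 (1,25D), or with the solvent alone, 0.1% ethanol (EtOH). DNA bound by VDR was recovered by ChIPmentation in 3 libraries per treatment. In this form of chromatin immunoprecipitation, sequencing adapters are inserted by a transposase while the chromatin is held on the beads. An input library was not analysed here. Whether replicates came from separate cultures is not stated in the labels, so the spread between libraries may be technical. The cells were measured in bulk, so binding in more cells and stronger binding per cell cannot be told apart.

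VDR is a nuclear receptor for 1,25D that binds DNA together with a retinoid X receptor, typically at a direct repeat of a hexamer. Serglycin is the core protein of a proteoglycan of secretory granules in blood cells, and its serine-glycine repeats carry chondroitin sulfate or heparin chains. CHST3 is a chondroitin 6-sulfotransferase of the Golgi apparatus, which adds sulfate to the N-acetylgalactosamine of chondroitin. The 2 genes thus stand for a carrier of chondroitin chains and for an enzyme that modifies such chains. In the order of protein-coding genes on GRCh38.p14, SRGN (gene ID 5552) lies between KIFBP and VPS26A, and CHST3 (gene ID 9469) lies between PSAP and SPOCK2. Places before the start or after the end of a gene are given for the plus strand, which the RefSeq promoter table states for CHST3. For SRGN the strand was taken from general knowledge, since the files and tables used here do not give it. A site near a gene was not assigned to it by any measurement of transcription here.

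VDR peaks at both genes lay away from the gene start. None of the 6 lists held a peak inside either gene body or at either gene start. The last site before SRGN ended 12.2 kb short of the gene start, and the last site before CHST3 ended 25.1 kb short of it. The promoter of CHST3 is shown because it is one of the places where no list had a peak. RefSeq gives CHST3 a set of 3 promoters in GRCh38.p14, and the outermost was searched over the 250 bases before its start, at chr10:71964145-71964394 on the plus strand. Capitals mark the single hexamer found, whose first base is 19 bases before the gene start:
CHST3 promoter: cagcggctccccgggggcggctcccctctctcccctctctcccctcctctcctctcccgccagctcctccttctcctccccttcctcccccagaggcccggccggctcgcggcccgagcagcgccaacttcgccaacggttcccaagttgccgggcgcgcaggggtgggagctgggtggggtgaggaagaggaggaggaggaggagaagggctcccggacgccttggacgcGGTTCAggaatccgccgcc
The hexamers searched, on both strands, were AGGTCA or GGGTCA or AGTTCA or GGTTCA. No overlap with another motif was looked for. A direct repeat of any of these 4 with a spacer of 3 bases was found in none of the 3 CHST3 promoters, and a single hexamer was found in 1 of them. Over all 35116 RefSeq promoters of the same length, 0.0655% held the direct repeat and 33.8% held at least 1 hexamer. This window has a GC content of 72.4%. The letters of the peaks themselves were not read, since the genome of their build was not used here.

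**Figure D1:**
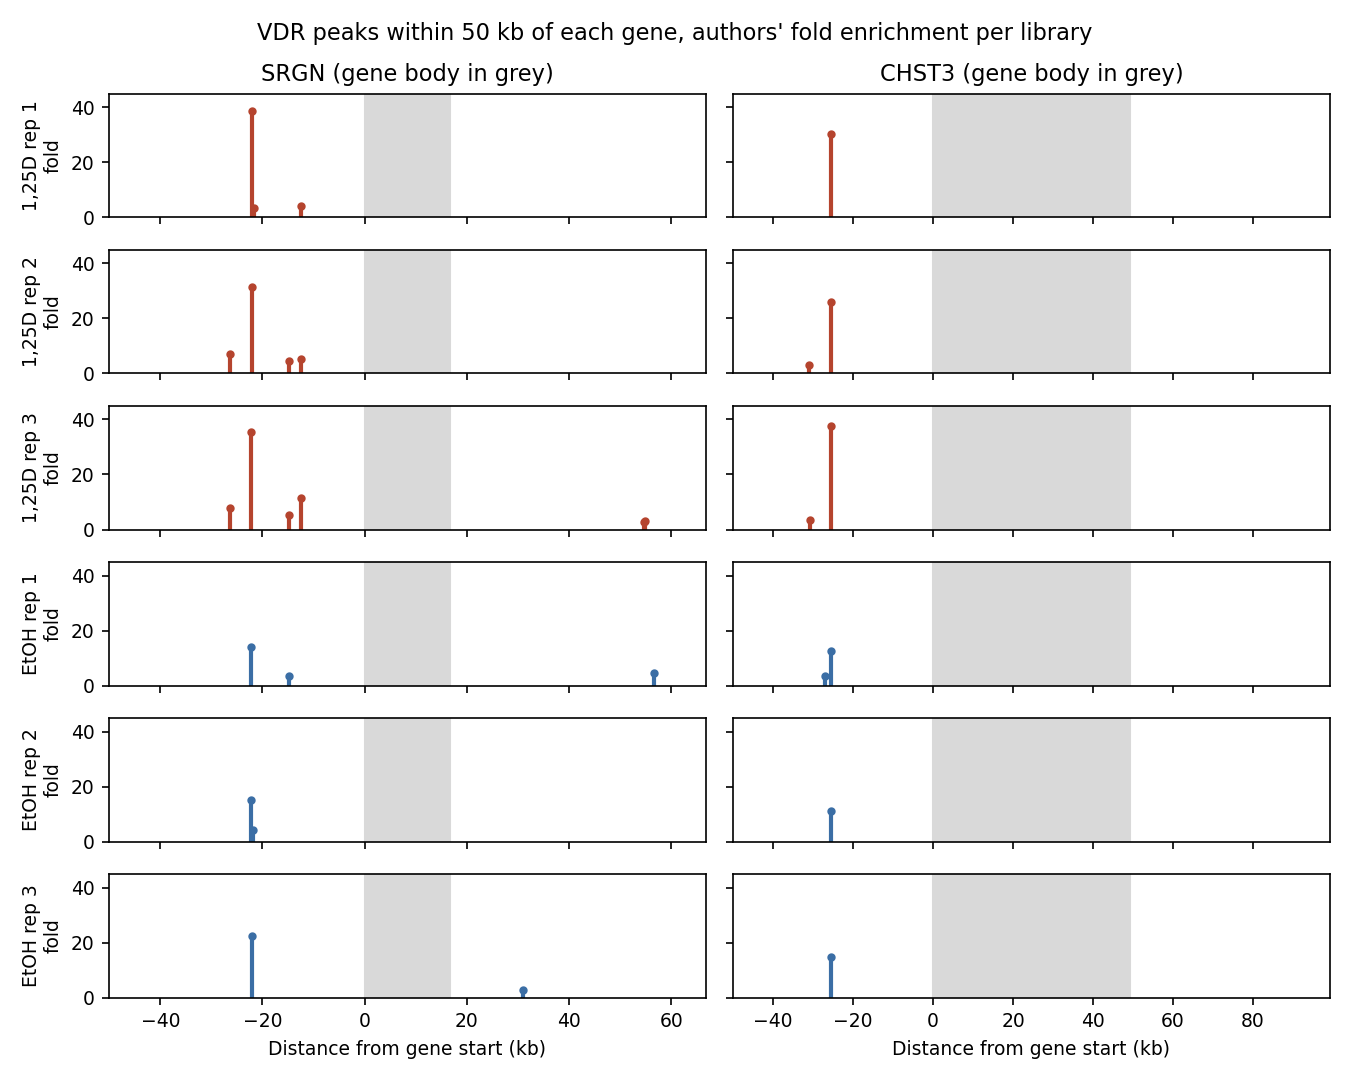
Each panel shows the peaks of 1 library around SRGN (left) or CHST3 (right), with the distance from the gene start in kb on the horizontal axis and the authors' fold enrichment on the vertical axis. The 1,25D libraries are in red above the EtOH libraries in blue, and the gene body is grey. In each panel the highest peak belongs to the merged site centred 22.1 kb (SRGN) or 25.6 kb (CHST3) before the gene start.

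The strongest VDR site at SRGN was at chr10:70825174-70826329, with its centre 22.1 kb before the gene start. It was called in all 6 lists, as were 1.03% of all sites. The authors' fold enrichment was 38.7, 31.3 and 35.5 in 1,25D replicates 1 to 3, against 14.2, 15.1 and 22.5 in EtOH replicates 1 to 3. Every 1,25D fold was above every EtOH fold, and the lowest 1,25D fold was 1.39 times the highest EtOH fold. The means were 35.2 ± 3.75 after 1,25D and 17.3 ± 4.58 after EtOH (SD, n = 3 each), a ratio of 2.04. The lists of both replicates 1 stop at a lower highest p (0.00433 and 0.00431) than the others (0.00978 to 0.00997). Between the replicates 1 the ratio was 2.74, and over replicates 2 and 3 it was 1.77 (2.07 for replicates 2 and 1.58 for replicates 3). With 1 highest p for all lists the mean folds were again 35.2 after 1,25D and 17.3 after EtOH. The authors' p for the strongest peak lay between 1.03e-106 and 7.79e-82 after 1,25D, and between 3.14e-57 and 2.80e-30 after EtOH.

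The strongest VDR site at CHST3 was at chr10:73698078-73699021, with its centre 25.6 kb before the gene start. It too was called in all 6 lists. The fold enrichment was 30.3, 25.8 and 37.5 in 1,25D replicates 1 to 3, against 12.5, 11.2 and 14.8 in EtOH replicates 1 to 3. Here also no 1,25D fold reached down to an EtOH fold, and the lowest 1,25D fold was 1.74 times the highest EtOH fold. The means were 31.2 ± 5.93 after 1,25D and 12.8 ± 1.86 after EtOH (SD, n = 3 each), a ratio of 2.43. The ratio was 2.43 between the replicates 1 and 2.44 over replicates 2 and 3. The authors' p lay between 4.24e-99 and 6.52e-64 after 1,25D, and between 1.43e-29 and 2.83e-20 after EtOH.

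**Figure D2:**
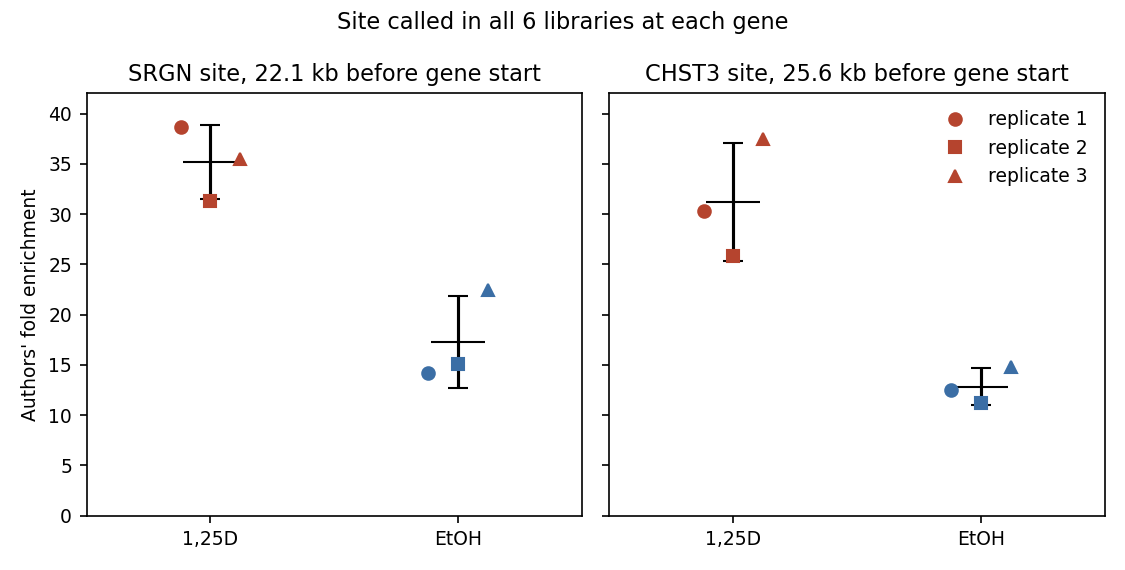
Points show the authors' fold enrichment (vertical axis) in each library at the strongest SRGN site (left) and the strongest CHST3 site (right), by treatment, and the black bars show the mean and SD of 3 libraries. The 1,25D points lie between 25.8 and 38.7 and the EtOH points between 11.2 and 22.5, with no overlap at either site.

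A higher fold after 1,25D was common among the sites called everywhere. Of the 298 sites in all 6 lists, 61.4% had every 1,25D fold above every EtOH fold, and 1.34% had every 1,25D fold below. The ratio of mean folds over these 298 sites had a median of 1.60 and quartiles of 1.17 and 2.28. The SRGN site was 94th and the CHST3 site 64th by this ratio. Their levels stood further out than their ratios. By mean fold the SRGN site was 9th after 1,25D and 10th after EtOH, and the CHST3 site was 10th after 1,25D and 21st after EtOH. Of the 30 such sites on chromosome 10, the SRGN site was the highest by mean fold after either treatment, and the CHST3 site was number 2 after 1,25D and number 4 after EtOH. These positions come from the values that led to the choice of the genes.

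**Figure D3:**
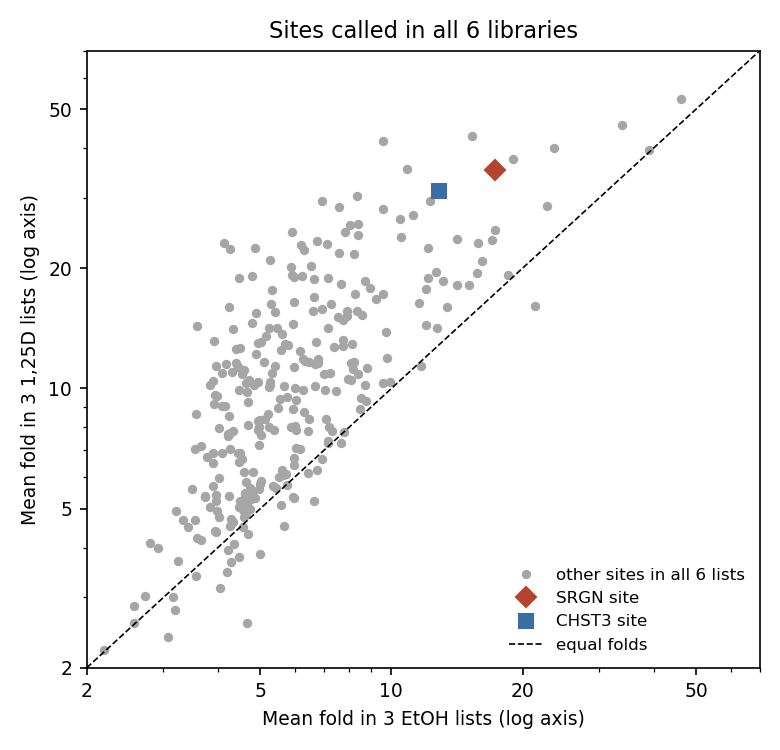
Each point is 1 of the 298 sites called in all 6 lists, placed by its mean fold after 1,25D (vertical, log axis) and after EtOH (horizontal, log axis), over 3 lists each, with a dashed line of equal folds. The SRGN site (35.2 after 1,25D and 17.3 after EtOH) and the CHST3 site (31.2 after 1,25D and 12.8 after EtOH) lie above the line, towards the upper right of the cloud.

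The folds come from lists that were called separately, whereas ranks within a list do not depend on its scale. Among the 298 sites, the SRGN site ranked 8, 8 and 10 in 1,25D replicates 1 to 3, against 11.5, 18 and 6 in EtOH replicates 1 to 3, where 1 is the highest fold. These ranks overlap, with EtOH replicate 3 giving the site its highest rank of all. Mean ranks were 8.67 after 1,25D and 11.8 after EtOH. The CHST3 site ranked 13, 13 and 7 in 1,25D replicates 1 to 3, against 23, 37 and 17.5 in EtOH replicates 1 to 3. Each of its 1,25D ranks was nearer the top than each of its EtOH ranks, which held for 20.8% of the 298 sites, while 24.2% had the opposite order. Its mean ranks were 11.0 after 1,25D and 25.8 after EtOH.

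The sites could also be set against each other inside each list, where they share the processing. They lie 2871.7 kb apart. The fold at the SRGN site over that at the CHST3 site was 1.28, 1.21 and 0.945 in 1,25D replicates 1 to 3, against 1.13, 1.35 and 1.52 in EtOH replicates 1 to 3. SRGN was thus the higher of the pair in 5 of 6 lists, the exception being 1,25D replicate 3. The mean ratio was 1.15 ± 0.177 after 1,25D and 1.33 ± 0.193 after EtOH (SD, n = 3 each), and the treatments overlapped.

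At each strongest site, the strongest peaks of the different libraries covered a common stretch of DNA. Some overlap follows from the merging into sites. The shared length and the midpoints were not compared with those of other sites. At SRGN the strongest peaks of the 6 lists shared 512 bp, at chr10:70825418-70825930, and their midpoints lay within 103 bp. At CHST3 they shared 726 bp, at chr10:73698140-73698866, and the midpoints lay within 71 bp. The SRGN peak was longer after 1,25D, at 826, 1060 and 840 bp, against 680, 634 and 593 bp after EtOH. Such a separation of lengths, longer in every 1,25D list, was found at 45.3% of the sites in all 6 lists. The CHST3 peak had lengths of 873, 923 and 729 bp after 1,25D and 749, 826 and 876 bp after EtOH, which overlap. At SRGN, 1,25D replicate 1 and EtOH replicate 2 each listed an additional, weaker peak just downstream of the main peak. These additional peaks did not overlap each other. The one in 1,25D replicate 1 was at chr10:70826182-70826329 with a fold of 3.35, and the one in EtOH replicate 2 at chr10:70825979-70826160 with a fold of 4.40.

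**Figure D4:**
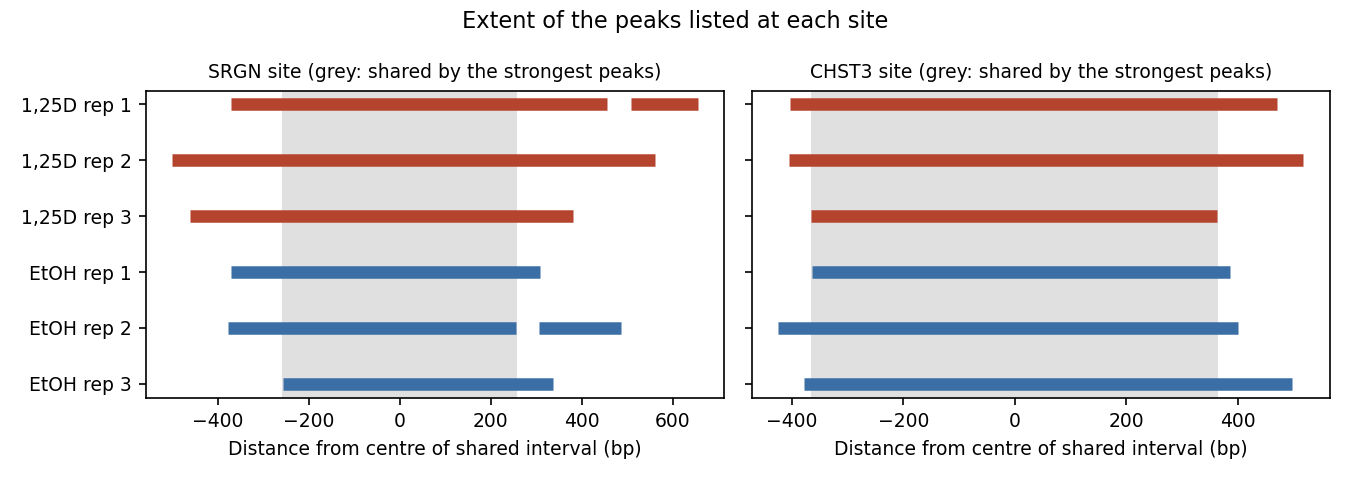
Horizontal bars show the start and end of each listed peak at the strongest SRGN site (left) and CHST3 site (right), in bp from the centre of the interval shared by the strongest peaks (grey), with 1,25D libraries in red above EtOH libraries in blue. The shared interval is 512 bp at SRGN and 726 bp at CHST3, and the short bars at SRGN are the weaker additional peaks of 1,25D replicate 1 and EtOH replicate 2.

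SRGN had further upstream sites, found mainly in the 1,25D lists. Together with the strongest site they made 4 sites within 14.5 kb, at chr10:70821158-70835673, all called in at least 2 lists, as were 10.2% of all sites. They were the only sites in the whole SRGN window of 116.7 kb, flanks included, with calls in at least 2 lists. Of windows of 116.7 kb laid end to end over the compared chromosomes, 0.875% held at least 4 sites called in at least 2 lists. Of the same windows, 10.1% held at least 8 sites of any kind, the number in the SRGN window. These windows were laid without regard to genes, whereas the SRGN window surrounds a gene chosen for a strong site. The shares are thus not those of comparable windows.

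The site nearest the SRGN gene start, at chr10:70835212-70835673 and 12.4 kb before it, was called by each of the 1,25D lists and by none of the EtOH lists. This pattern was shown by 1.70% of all sites. Its fold was 4.21, 5.09 and 11.6 in 1,25D replicates 1 to 3, a mean of 6.95 ± 4.02 (SD, n = 3). The value of replicate 3 was 2.75 times that of replicate 1, a spread that was number 4 in width among the 492 sites with this pattern, whose median was 1.38. By mean fold it was 73rd of these 492 sites, which had a median of 4.86 and quartiles of 4.14 and 6.04. The fold and p of the weakest of its peaks, that of 1,25D replicate 1, were carried by 496 of the 5203 peaks compared in that list.

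Another site, at chr10:70821158-70821695 and 26.4 kb before the SRGN start, was called in 1,25D replicates 2 and 3 alone. At least 2 1,25D lists and no EtOH list called 3.89% of all sites. The folds were 7.06 and 7.76, and no peak was listed there in 1,25D replicate 1. The peaks of both lists began at the same base, 70821158. A further site, at chr10:70832808-70833182 and 14.8 kb before the start, had folds of 4.41 and 5.25 in 1,25D replicates 2 and 3, against 3.57 in EtOH replicate 1. The EtOH peak had the same fold and p as 692 of the 5251 peaks compared in its list, which is 13.2% of them.

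The strongest SRGN site was close to a site found after 1,25D only. The distance from it to the site at 70835212 was 8.88 kb. Among the 298 sites in all 6 lists, the nearest site with the pattern of all 1,25D and no EtOH lists was at a median of 523.9 kb (quartiles 132.9 and 1356.0 kb), and at 15 of them it was nearer than at SRGN. For the CHST3 site that distance was 47.7 kb, and at 40 sites it was shorter. The 298 sites as a whole were not chosen for a high fold, so these counts do not come from comparable sites.

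The other 4 sites in the SRGN window lay downstream of the gene, between 14.3 and 39.9 kb after its end. Whether they lie within VPS26A, the next gene, was not examined. Each of these sites was called in a single list. Sites of a single list formed 89.8% of all sites. Their folds were 2.73 and 3.09 in 1,25D replicate 3, against 4.76 in EtOH replicate 1 and 3.01 in EtOH replicate 3. EtOH replicate 2, which has the longest list with 11317 of the peaks compared, had none of them.

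CHST3 had less around it. Besides its strongest site, a weak site at chr10:73693063-73693390, 30.9 kb before the gene start, had folds of 3.23 and 3.59 in 1,25D replicates 2 and 3 and no peak in an EtOH list. The remaining site, at chr10:73696987-73697134, was in EtOH replicate 1 alone with a fold of 3.67. All 3 sites lay upstream. At least 3 sites were found in 56.1% of windows as long as the CHST3 window of 149.2 kb, at least 2 sites called in 2 or more lists in 9.31%, and a site in all 6 lists in 4.10%. Of windows of the SRGN length, 3.26% held a site in all 6 lists. As at SRGN, the windows compared were not chosen for a strong site, unlike the gene windows. From the strongest CHST3 site to chr10:73885646, which is 112.3 kb past the end of the gene, no list had a peak. This stretch of 186.6 kb contains the whole gene, and 1.99% of the stretches between neighbouring sites were at least as long, with a median of 13.6 kb. The corresponding stretch over SRGN was 43.2 kb, a length reached by 21.6% of them. A stretch picked because it contains a gene is at least as long as that gene, 49.2 kb for CHST3 and 16.7 kb for SRGN. These shares also count stretches and not the DNA that they cover. They therefore do not show that either stretch is unusual for a gene.

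The limit of 50 kb left out one site upstream of CHST3 that every 1,25D list held. Which gene was nearest to this site in hg19 was not examined. It lay 23.7 kb beyond the limit, at chr10:73649819-73650409 and 74.0 kb before the gene start, in the direction of PSAP. Its fold was 5.30, 8.60 and 5.45 in 1,25D replicates 1 to 3, with no peak in an EtOH list. The nearest sites outside the limit were weaker: folds of 3.42 in 1,25D replicate 1 and 2.59 in EtOH replicate 1, both upstream of CHST3, and 4.15 in EtOH replicate 2, downstream of SRGN. The sites nearest to the limit on the inside were the site with a fold of 4.76 in EtOH replicate 1 at SRGN and the site with folds of 3.23 and 3.59 in 1,25D replicates 2 and 3 at CHST3.

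Sites elsewhere with the most similar pattern were sought by the distance between percentiles of fold within the 6 lists. For the SRGN site the nearest was at chr12:94241321-94242700, with mean folds of 37.5 ± 6.96 after 1,25D and 19.0 ± 1.75 after EtOH (SD, n = 3 each). The next were chr1:175489834-175491533, with 40.0 ± 4.25 after 1,25D and 23.6 ± 2.27 after EtOH, and chr11:73966484-73968237, with 39.4 ± 5.80 after 1,25D and 39.0 ± 7.86 after EtOH. For the CHST3 site the nearest was at chr14:89823967-89824757, with 29.4 ± 4.92 after 1,25D and 12.3 ± 1.24 after EtOH. The SRGN site was number 2 for CHST3, and the CHST3 site was number 7 for SRGN. Number 3 for CHST3 was at chr1:79445380-79447313, with 42.8 ± 7.83 after 1,25D and 15.3 ± 2.06 after EtOH. Percentiles this close to the top are compressed, so sites of unequal fold can be close by this measure.

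Over the part compared, 1,25D replicates 1 to 3 listed 5203, 3647 and 4424 peaks, and EtOH replicates 1 to 3 listed 5251, 11317 and 5722. In the SRGN and CHST3 windows together they held 4, 6 and 8 peaks after 1,25D and 5, 3 and 3 after EtOH. Sequencing depth is unknown, and a missing peak means that the caller's threshold was not passed in that list.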

How the data were processed

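VDR ChIPmentation peak lists of 6 THP-1 libraries, 3 per treatment, were used as deposited. The submitters' processing notes name Bowtie 1.1, MACS2 and the build hg19 (GRCh37). Their settings, any use of the input and any removal of duplicates were not given in the sources used here. Lists were made per library, so replicates were not pooled. Each peak has a fold enrichment, a ratio over background computed by the authors' caller, per the file headers. Its p-value is also the authors', per the file headers. Coordinates are the lists' own, and since their counting base is not stated, starts carry an uncertainty of 1 bp.

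In the copies used here 3 lists stopped in mid-line, and the incomplete line was left out. Sites were compared on chromosomes 1 and 10 to 15, and on chromosome 16 up to 50293713, which all 6 lists cover. Peaks sharing at least 1 bp were merged, and the highest fold of a list stood for its fold at a site. Ranks and percentiles were taken within lists (Python 3.11.15, pandas 2.3.3). Merging was tested on simulated lists with well separated sites, so neighbouring or split peaks were not tested. Ranking was run on the same lists, without a set criterion for its outcome. No 2 lists shared an identical line (0 lines).

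The gene windows and all comparisons were chosen with earlier results of these data known. No test was run, because members and contrast are those of the choice; 3 against 3 libraries allow no two-sided exact permutation p below 0.1. Every site of the windows is accounted for, those in at least 2 lists by their values. The most similar sites are the 3 at the smallest Euclidean distance. Other genes of chondroitin sulfate synthesis were not analysed here, since an annotation of hg19 was not used. Promoters are RefSeq's for GRCh38.p14, and no coordinates were converted.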

Additional observations from a re-analysis of the deposited data

How the results depend on the processing

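The mean folds at the strongest SRGN and CHST3 sites moved by less than 1 SD under every alternative run. The runs were a fold of 5 or more, 1 highest p for all lists, 50% overlap, centres within 250 bp, equal list length, and each library left out. Both replicates 1 alone and replicates 2 and 3 alone were chosen after seeing the data. Most of these runs could not have given another outcome. The filters and merging rules left the means unchanged, since the strongest peaks of both sites pass them all. Leaving out 1 of 3 libraries cannot move a mean by 1 SD, whatever the values. Without 1 library each, the means ranged from 33.4 to 37.1 after 1,25D and from 14.6 to 18.8 after EtOH at SRGN, and from 28.1 to 33.9 after 1,25D and from 11.8 to 13.7 after EtOH at CHST3. The difference in mean rank was taken as 1,25D minus EtOH, negative meaning nearer the top after 1,25D. Its SD combines the spread of the ranks in both treatments. At CHST3 the difference was -14.8 (SD 10.6), and -19.0 to -9.25 without 1 library, the last without EtOH replicate 2. At SRGN it was -3.17 (SD 6.12), but -0.0833 without EtOH replicate 2, -6.08 without EtOH replicate 3 and -1.83 with centres within 250 bp. The SRGN difference did not change sign, but in the main run it was smaller than its SD. Runs without 1 library rank among 301 to 392 sites instead of 298, so their rank differences are not on the same scale.

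The number of sites depended on the weak peaks and on the flank. With a fold of 5 or more, there were 4 sites at SRGN and 1 at CHST3. With a flank of 25 kb there were 4 and 0, the strongest CHST3 site then falling outside, and with 100 kb there were 12 at SRGN and 7 at CHST3. Both replicates 1 alone gave 5 sites at SRGN. Without 1 library there were 6 to 9 at SRGN and 2 or 3 at CHST3. No paired analysis was possible because no result comes from a test, so no fit with the replicate number as a block was made. As a description, the fold after 1,25D over that after EtOH between libraries of the same replicate number was 2.74, 2.07 and 1.58 at the strongest SRGN site and 2.43, 2.31 and 2.53 at the strongest CHST3 site, for replicates 1 to 3.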
